A study of Mus musculus with 22 samples.

Results

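The 37 genes described here encode enzymes, regulators and transport proteins of cholesterol synthesis and lipogenesis, and they were chosen by name. The rule uses no value of these libraries, but earlier results of these data were known when the names were listed. All 37 were found among the 16556 genes of the count table, and all 37 passed the filter on low counts, which left 15064 genes for the tests. By role, 21 members belong to the sterol branch, with 7 in the mevalonate steps, 11 in the squalene and sterol steps and 3 in regulation or transport. A further 11 belong to fatty acid synthesis, and 5 belong to glycerolipid synthesis.

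The levels come from polyadenylated RNA of kidney cortex of male C57BL/6J mice, with 22 libraries named by animal. In the Pt-CrAT mice, Crat was deleted by Cre under the Ggt promoter, which is active in proximal tubule cells. The control mice are labelled fl/fl and carry no Cre, so every animal has the floxed allele. There were 3 fl/fl and 3 Pt-CrAT libraries at 12 months with the word LFD in their titles, 3 and 3 at 15 months on chow, and 5 and 5 at 24 months on chow. The labels do not spell out LFD, and age and diet change together between 12 months and the other ages. Levels at 12 months were therefore tested only between the genotypes of that age. The genotype difference at 12 months also entered a mean and a test of variation over the 3 settings of age and diet. Crat encodes carnitine acetyltransferase, which passes acetyl groups between coenzyme A and carnitine in mitochondria.

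Cholesterol and fatty acids are both built from acetyl-CoA in the cytosol. The mevalonate steps lead from acetyl-CoA to farnesyl diphosphate, and the squalene and sterol steps lead from there to cholesterol. When sterol in the endoplasmic reticulum is low, the transcription factor SREBP-2 is released and raises the genes of the sterol branch as a group, while SREBP-1c and ChREBP are known as activators of fatty acid synthesis. The proximal tubule is better known for burning fatty acids than for making them.

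The library totals were 12175804 to 17447367 counts for 21 libraries and 53157575 for CrAT12MLFD345 at 12 months. Single libraries are named by their titles, which start with Wt for fl/fl and CrAT for Pt-CrAT, and values run in the order of these numbers. Levels are CPM, the read count scaled to the size of its library with TMM (trimmed mean of M values). The kit tags the 3′ end of each transcript, so a level was not divided by gene length. The targeted gene, Crat, did not separate the labels at each age. It was 54.0, 84.6 and 98.0 CPM in fl/fl against 42.4, 81.1 and 64.2 CPM in Pt-CrAT at 12 months, and 43.5 to 112 CPM against 28.4 to 38.9 CPM at 24 months. At 15 months it ran against the labels, with 41.5, 34.3 and 60.0 CPM in the libraries labelled fl/fl and 63.1, 72.6 and 71.8 CPM in those labelled Pt-CrAT. A 3′ tag does not say whether an exon is missing, so Crat levels are a limited check. Each 15-month direction below is therefore that of the libraries labelled Pt-CrAT. Cubilin and megalin transcripts, solute carriers and the other proximal tubule markers of segments S1 and S2 summed to 9969 CPM or more in every library, so the labelled tissue holds its defining markers.

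To show what the members share in sequence, promoter windows were read from RefSeq (build GRCm38.p6) for 28 of the 37 members, each running from 250 bases before to 50 bases after a transcript start. The windows below belong to Hmgcs1, the most abundant member, to Idi1 and Fasn, which differed in opposite directions at 12 months, and to Sc5d, which fell between 15 and 24 months in each genotype. They lie at chr13:119690101-119690400 (plus strand), chr13:8885356-8885655 (plus strand), chr11:120824498-120824797 (minus strand) and chr9:42264251-42264550 (minus strand), in that order. Each is written 5′ to 3′ on the strand of its gene. Capitals mark every match, on either strand, to TCACNCCAC (a sterol regulatory element), CCAAT (the box bound by NF-Y), GGGCGG (the box bound by Sp1) or CACGTG (an E-box).
Hmgcs1: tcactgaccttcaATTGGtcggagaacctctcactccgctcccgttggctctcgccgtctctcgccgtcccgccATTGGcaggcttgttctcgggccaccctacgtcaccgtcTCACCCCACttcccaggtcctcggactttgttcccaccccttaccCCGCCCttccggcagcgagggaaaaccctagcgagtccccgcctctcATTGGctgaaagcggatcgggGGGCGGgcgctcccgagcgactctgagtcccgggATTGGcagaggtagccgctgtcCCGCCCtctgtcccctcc
Idi1: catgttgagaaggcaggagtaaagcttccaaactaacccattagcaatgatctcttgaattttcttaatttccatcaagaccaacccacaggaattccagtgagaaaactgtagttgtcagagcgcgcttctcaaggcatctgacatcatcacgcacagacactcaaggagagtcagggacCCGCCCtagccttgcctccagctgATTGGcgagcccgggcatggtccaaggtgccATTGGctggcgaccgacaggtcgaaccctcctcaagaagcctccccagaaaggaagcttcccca
Fasn: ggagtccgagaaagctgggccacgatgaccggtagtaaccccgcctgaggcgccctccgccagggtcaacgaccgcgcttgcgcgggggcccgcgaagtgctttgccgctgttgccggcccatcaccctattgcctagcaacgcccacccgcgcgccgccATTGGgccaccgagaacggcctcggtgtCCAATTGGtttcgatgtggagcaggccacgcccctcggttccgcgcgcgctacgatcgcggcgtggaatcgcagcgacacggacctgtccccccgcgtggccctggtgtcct
Sc5d: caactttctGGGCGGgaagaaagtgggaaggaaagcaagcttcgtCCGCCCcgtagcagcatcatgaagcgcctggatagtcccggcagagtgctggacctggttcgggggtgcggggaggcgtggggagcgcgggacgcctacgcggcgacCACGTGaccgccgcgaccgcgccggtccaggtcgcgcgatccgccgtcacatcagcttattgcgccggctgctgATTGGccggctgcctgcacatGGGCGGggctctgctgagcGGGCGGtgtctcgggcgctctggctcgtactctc

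The CCAAT box and GGGCGG were equally frequent within the sterol branch. The CCAAT box stood in 16 of the 17 sterol members with a window (94.1%), in 6 of 8 fatty acid members (75%) and in 1 of 3 glycerolipid members (33.3%), beside 42.3% of the 10271 tested genes with a window. GGGCGG stood in 16 of 17 sterol members (94.1%), 4 of 8 fatty acid members (50%) and 2 of 3 glycerolipid members (66.7%), beside 67.1% of tested genes. The sterol element in this spelling was rare. Of the 28 members it stood in Hmgcs1, at chr13:119690214-119690222, and in Mlxipl, at chr5:135106755-135106763, beside 1.38% of tested genes. CACGTG stood in 4 of 17 sterol members, 2 of 8 fatty acid members and none of 3 glycerolipid members, beside 11.6% of tested genes. Some members have several transcript starts, and across the 36 windows of the 28 members there were 108 matches, and 1 pair of different motifs overlapped, in Elovl1. A match is a description of the letters, and a window without one says nothing about the factor.

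The members differed widely in level. Hmgcs1, which makes HMG-CoA from acetyl-CoA and acetoacetyl-CoA, had the highest mean over the 22 libraries at 630 CPM. It was followed by Mvd, the mevalonate diphosphate decarboxylase, at 362 CPM and by Cyp51, which demethylates lanosterol, at 340 CPM. Mlxipl, which encodes ChREBP, averaged 238 CPM and Acat2, the cytosolic acetoacetyl-CoA thiolase, 234 CPM. At the other end stood Idi1, the isomerase that turns isopentenyl into dimethylallyl diphosphate, at 1.58 CPM and 6 to 79 counts in a library. Srebf1, which encodes SREBP-1, averaged 1.76 CPM and 4 to 76 counts. The steadiest member was Hsd17b7, a ketosterol reductase, with a coefficient of variation of 8.26% over the 22 libraries, and the most variable was Srebf1 at 78.9%. Mvk, Srebf2 and Fads1 also varied little, at 15.7%, 14.9% and 13.2%.

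**Figure D1:**
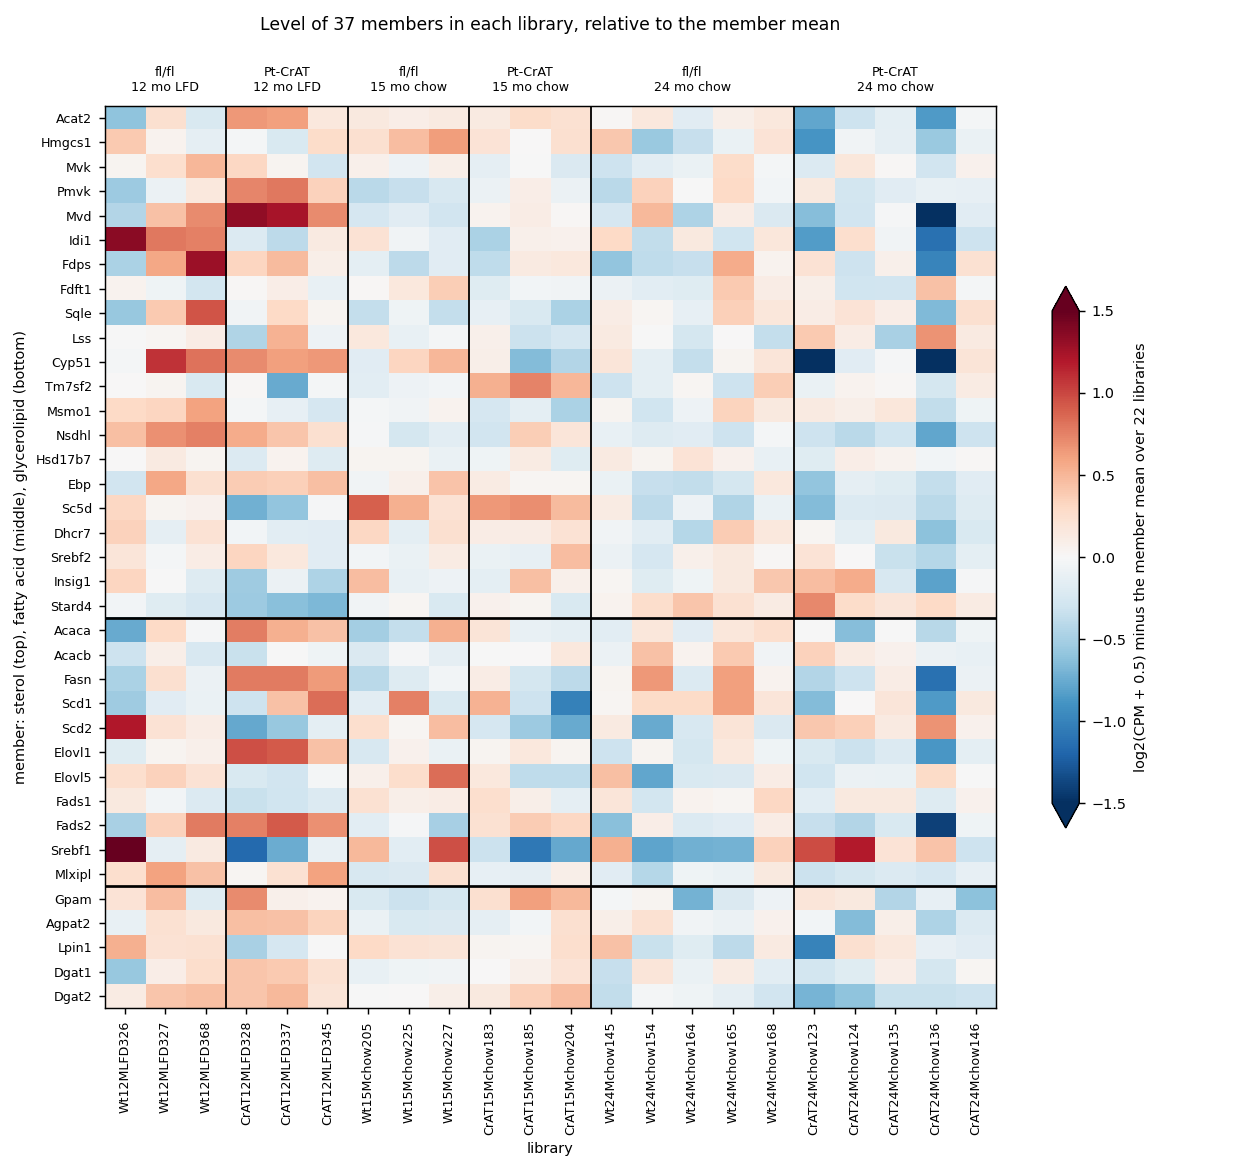
Level of each of the 37 members (rows, in pathway order) in each of the 22 libraries (columns, by group), as log2(CPM + 0.5) minus the mean of that member over all libraries. The 12-month columns show Mvd, Fasn, Elovl1 and Fads2 high in Pt-CrAT, and CrAT24Mchow136 at 24 months is low in most sterol rows.

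At 12 months, 8 of the 37 members passed the test between Pt-CrAT and fl/fl, 4 higher and 4 lower, and neither branch moved one way. Passing means an adjusted p under 0.05 in edgeR's quasi-likelihood test, with Benjamini-Hochberg adjustment over all genes tested. The members higher in Pt-CrAT were Acat2 and Pmvk of the mevalonate steps and Fasn and Elovl1 of fatty acid synthesis. The members lower in Pt-CrAT were Idi1, Msmo1 and Stard4 of the sterol branch and Scd2 of fatty acid synthesis. The share of members called, 8 of 37, stands beside 16.4% of all tested genes called in this comparison, with 8.41% higher and 7.95% lower. In 12 of 37 members (32.4%) the libraries of the genotypes did not overlap, beside 30.1% of all tested genes.

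In the mevalonate steps, Acat2 and Pmvk were higher while Idi1 was lower. Acat2 read 149, 269 and 194 CPM in fl/fl and 358, 348 and 254 CPM in Pt-CrAT, so the groups overlapped by a single pair of libraries. Its log2 fold change was 0.65 (SE 0.20, edgeR adjusted p = 0.0348). Pmvk, the phosphomevalonate kinase, read 21.8, 30.1 and 35.8 CPM in fl/fl and 53.7, 55.9 and 40.8 CPM in Pt-CrAT. The groups did not overlap, and the log2 fold change was 0.77 (SE 0.19, edgeR adjusted p = 0.0130). Idi1 read 4.48, 2.87 and 2.78 CPM in fl/fl and 1.19, 0.986 and 1.63 CPM in Pt-CrAT. Each Pt-CrAT library was below each fl/fl library, with a log2 fold change of -1.35 (SE 0.39, edgeR adjusted p = 0.0255). Mvd, with a log2 fold change of 0.81 (SE 0.35), did not pass at an adjusted p of 0.111. Its libraries read 240, 440 and 533 CPM in fl/fl and 823, 770 and 531 CPM in Pt-CrAT. Hmgcs1, Mvk, which is the mevalonate kinase, and Fdps, which makes farnesyl diphosphate, had log2 fold changes of -0.10, -0.25 and -0.34, none of them past the test. Hmgcs1 read 805, 634 and 556 CPM in fl/fl and 600, 522 and 739 CPM in Pt-CrAT.

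In the squalene and sterol steps, 1 of 11 members passed and 8 of 11 had a log2 fold change below 0. Msmo1, the methylsterol monooxygenase, read 49.5, 50.4 and 61.1 CPM in fl/fl and 39.5, 36.8 and 33.6 CPM in Pt-CrAT. The groups did not overlap, with a log2 fold change of -0.55 (SE 0.16, edgeR adjusted p = 0.0257). Sc5d, the lathosterol oxidase, read 74.6, 61.9 and 63.1 CPM against 36.3, 39.8 and 59.6 CPM, and its log2 fold change of -0.55 (SE 0.19) missed the threshold at an adjusted p of 0.0529. Sqle, squalene epoxidase, spread from 46.1 to 133 CPM within fl/fl and from 65.7 to 84.6 CPM within Pt-CrAT. Its log2 fold change was -0.28 (SE 0.26, edgeR adjusted p = 0.460). Cyp51, at -0.04 (SE 0.39), and Lss, lanosterol synthase, at 0.00 (SE 0.28), showed no difference beyond their spread. Fdft1 (squalene synthase), Tm7sf2 (a sterol reductase), Nsdhl (a sterol dehydrogenase), Hsd17b7, Ebp (a sterol isomerase) and Dhcr7 (a late sterol reductase) lay between -0.30 and 0.17.

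Of the 3 members for sterol regulation and transport, only Stard4, a carrier that moves cholesterol between membranes, passed at 12 months. It read 52.9, 48.0 and 45.8 CPM in fl/fl and 37.3, 35.3 and 34.0 CPM in Pt-CrAT. Without overlap between the groups, the log2 fold change was -0.46 (SE 0.15, edgeR adjusted p = 0.0359). Srebf2, which encodes SREBP-2, read 74.8, 64.7 and 71.7 CPM against 82.7, 73.7 and 58.4 CPM, a log2 fold change of 0.02 (SE 0.18, adjusted p = 0.947). Insig1, which holds the SREBP complex in the endoplasmic reticulum, read 10.7, 8.42 and 7.33 CPM against 5.66, 7.89 and 5.96 CPM. Its log2 fold change was -0.44 (SE 0.29, edgeR adjusted p = 0.291). The median log2 fold change of the 21 sterol members was -0.18, with 7 above and 14 below 0, beside a median of 0.00 over all tested genes.

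In fatty acid synthesis, Fasn and Elovl1 were higher and Scd2 was lower. Fasn, fatty acid synthase, read 67.6, 111 and 89.1 CPM in fl/fl and 163, 162 and 147 CPM in Pt-CrAT. The groups did not overlap, with a log2 fold change of 0.82 (SE 0.25, edgeR adjusted p = 0.0339). Elovl1, an elongase of very long saturated chains, read 151, 176 and 181 CPM in fl/fl and 334, 324 and 233 CPM in Pt-CrAT. Its log2 fold change was 0.81 (SE 0.18, edgeR adjusted p = 0.00792). Scd2, a stearoyl-CoA desaturase, read 103, 51.5 and 48.1 CPM in fl/fl and 25.9, 29.8 and 40.1 CPM in Pt-CrAT. The log2 fold change was -1.07 (SE 0.26, edgeR adjusted p = 0.0142), and the 103 CPM of Wt12MLFD326 stood well above the other fl/fl libraries.

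Acaca, the carboxylase that makes malonyl-CoA in the cytosol, read 10.3, 21.9 and 17.5 CPM in fl/fl and 30.7, 26.0 and 24.3 CPM in Pt-CrAT. The groups did not overlap, but its log2 fold change of 0.70 (SE 0.26) did not pass at an adjusted p of 0.0633. Acacb, the form tied to mitochondria, had a log2 fold change of 0.02. Scd1, the main desaturase of liver and fat, read 42.1, 54.2 and 57.0 CPM against 49.2, 83.3 and 109 CPM, a log2 fold change of 0.66 (SE 0.35, edgeR adjusted p = 0.196). Fads2, a desaturase of polyunsaturated chains, stood at 0.49, Fads1 at -0.25 and the elongase Elovl5 at -0.45, none past the test.

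Of the lipogenic regulators, Srebf1 read 6.08, 1.27 and 1.63 CPM in fl/fl and 0.365, 0.657 and 1.30 CPM in Pt-CrAT. The low fl/fl libraries and the highest Pt-CrAT library overlapped, and the log2 fold change of -1.74 (SE 0.62) did not pass at an adjusted p of 0.0572. Mlxipl stood at -0.14 (SE 0.16). No glycerolipid member passed, with 2 of 5 at an unadjusted p under 0.05. Lpin1, a phosphatidate phosphatase, had a log2 fold change of -0.57 (SE 0.24, edgeR adjusted p = 0.0953). Dgat1, which makes triacylglycerol, stood at 0.37, Agpat2 at 0.31, Gpam, the first acyltransferase, at 0.12 and Dgat2 at 0.03. The median log2 fold change was 0.02 over the 11 fatty acid members and 0.12 over the 5 glycerolipid members.

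**Figure D2:**
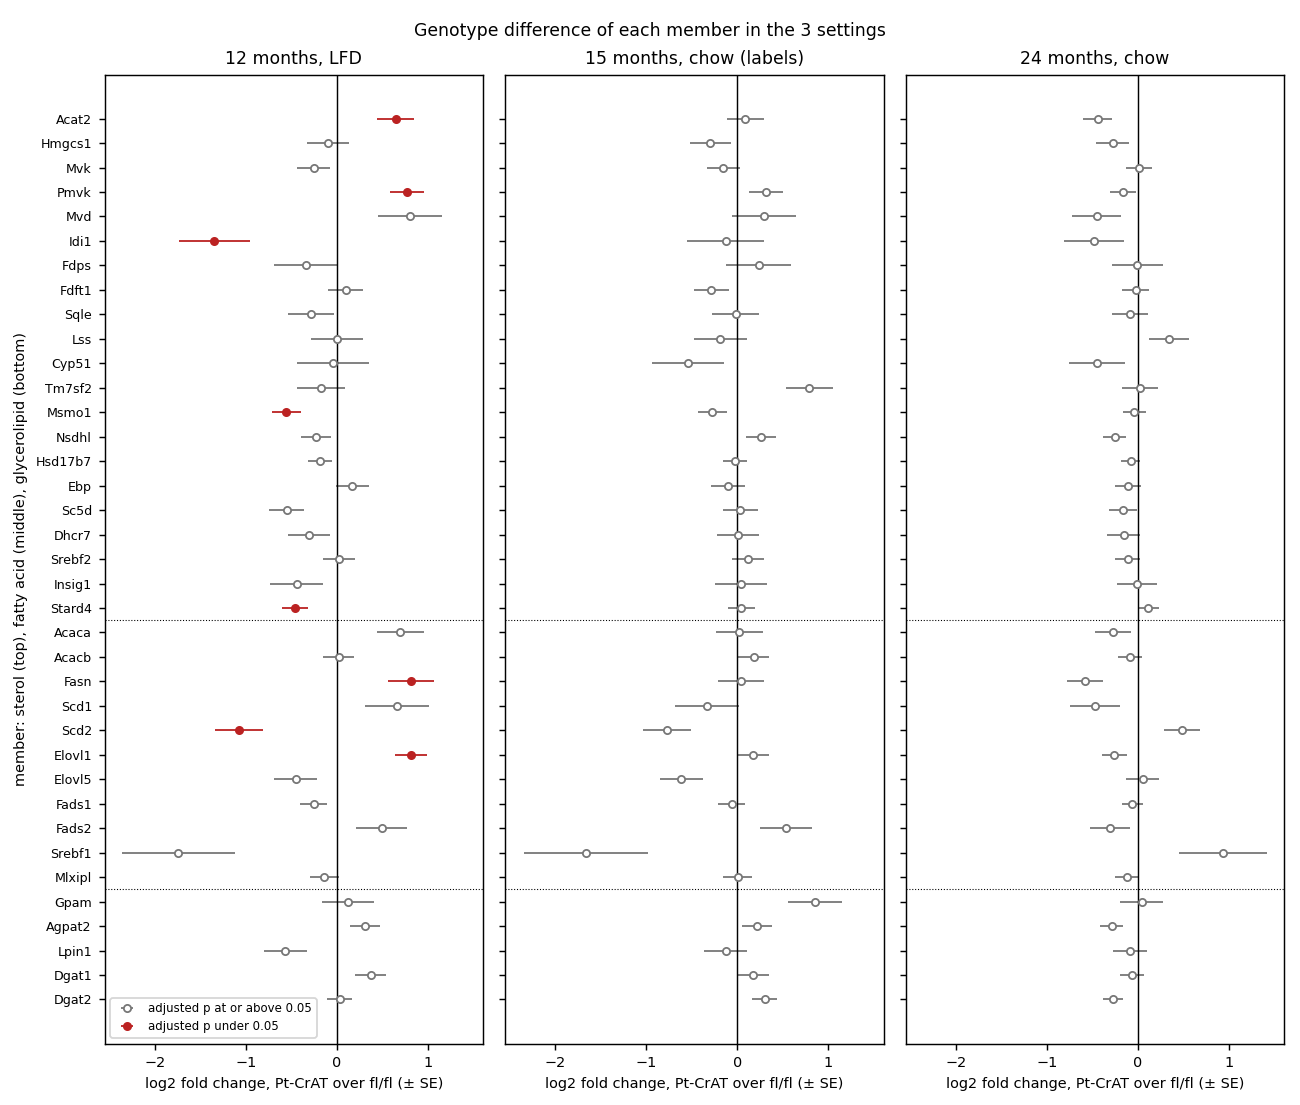
Log2 fold change of Pt-CrAT over fl/fl (horizontal, with SE) for each member (vertical, in pathway order) at 12, 15 and 24 months. Filled red points passed the test: 8 members at 12 months, and none at 15 or 24 months.

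The 12-month calls rested on few libraries. Without Wt12MLFD326 the only member called was Elovl1 (adjusted p = 0.0424), and the other 7 lay between 0.0559 and 0.201. Without CrAT12MLFD328 no member was called (0.0652 to 0.158), and without CrAT12MLFD337 only Elovl1 was (0.0421, the others 0.0686 to 0.127). Scd2 moved from -1.07 to -0.63 without Wt12MLFD326. Over the 6 libraries left out in turn, Elovl1 stayed past the threshold in 5, Pmvk, Idi1 and Scd2 in 3, Acat2 and Fasn in 2, and Msmo1 and Stard4 in 1. A fit on the 6 libraries alone called no member and 1 gene in all.

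Markers of several cell types moved with genotype at 12 months. Of 8 tested adipocyte markers, 7 were called higher in Pt-CrAT, and the summed level of the 9 listed was 134 to 276 CPM in fl/fl and 353 to 887 CPM in Pt-CrAT. Adipoq, made by adipocytes, read 0.320, 0.735 and 0.407 CPM in fl/fl and 5.75, 14.1 and 28.0 CPM in Pt-CrAT, and none of the 9 markers was at 0 in all libraries. Within Pt-CrAT, Fasn read 163, 162 and 147 CPM in the same order as those Adipoq values, and Scd1 read 49.2, 83.3 and 109 CPM. Macrophage markers summed to 186 to 733 CPM in fl/fl and 545 to 841 CPM in Pt-CrAT, with none of 10 called. Of 12 markers of proximal tubule segments S1 and S2, 4 were called lower in Pt-CrAT and none higher, while their sums overlapped at 17396 to 23979 CPM in fl/fl and 21261 to 22915 CPM in Pt-CrAT. Of 8 markers of segment S3, 1 was called higher and 1 lower, and of 6 markers of the thick ascending limb and distal tubule 1 was called lower. Immediate early genes, which respond fast to stress, had 2 of 7 called lower, with sums of 68.3 to 170 CPM in fl/fl and 44.4 to 68.4 CPM in Pt-CrAT. Markers of glomerulus, collecting duct and liver and the androgen-responsive genes had no call. The part of these cells and responses in the differences of Fasn, Scd1 and the other members was not tested. In bulk tissue, fewer cells of a type and less RNA per cell cannot be told apart.

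The direction of the members called at 12 months also followed base composition. The longest coding transcripts of the 4 members called higher had a GC content of 49.6% to 57.9% (median 54.7%), and those of the 4 called lower 41.9% to 49.5% (median 44.6%). Over all 37 members, Spearman's rho between GC content and the 12-month log2 fold change was 0.38, beside 0.21 over 13215 tested genes with a transcript. Members share libraries and are not independent, so no test was made. Across genes, the rho of library level with GC content was -0.15 in Wt12MLFD326, 0.17 and 0.14 in the other fl/fl libraries and 0.25 to 0.30 in the Pt-CrAT libraries. Several members that were not called did not follow the order of the called members. Srebf1 had a GC content of 58.4% and a log2 fold change of -1.74. Mvk (59.6%), Mlxipl (56.6%) and Fdps (54.5%) were also lower in Pt-CrAT, and Scd1 (47.1%) was higher. The part of base composition in the member differences was not tested.

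**Figure D3:**
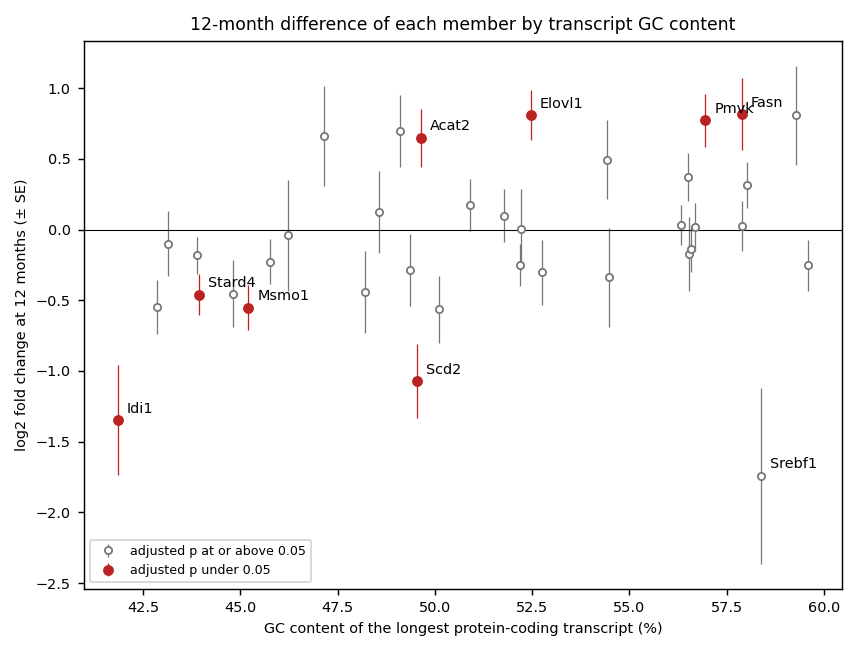
Log2 fold change of Pt-CrAT over fl/fl at 12 months (vertical, with SE) against the GC content of the longest coding transcript (horizontal, percent) for the 37 members. The red points passed the test, and those above 0 lie at 49.6% GC or more while those below 0 lie at 49.5% or less.

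At 15 months on chow, no member passed between the libraries labelled Pt-CrAT and fl/fl, and no gene did (0%). By edgeR, 6 members and 1249 of all tested genes had an unadjusted p under 0.05, and DESeq2 and limma-voom also called no member and no gene. In 12 of 37 members (32.4%) the libraries did not overlap, 8 higher and 4 lower in those labelled Pt-CrAT, beside 24.3% of all tested genes. The median log2 fold change was 0.00 in the sterol branch, 0.00 in fatty acid synthesis and 0.22 in glycerolipid synthesis, beside 0.01 over all tested genes. The highest and lowest values among the members were those of Gpam and Srebf1.

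Tm7sf2 read 2.37, 2.54 and 2.61 CPM in the libraries labelled fl/fl and 4.14, 4.88 and 4.02 CPM in those labelled Pt-CrAT. The groups stood apart, with a log2 fold change of 0.79 (SE 0.26, edgeR adjusted p = 0.581). Gpam read 2.29, 2.13 and 2.23 CPM against 3.39, 4.53 and 4.10 CPM, a log2 fold change of 0.85 (SE 0.30). Dgat2, another enzyme that makes triacylglycerol, read 93.9, 94.8 and 101 CPM against 104, 121 and 130 CPM, a log2 fold change of 0.30 (SE 0.14). Scd2 read 53.0, 45.4 and 61.3 CPM against 37, 30.1 and 26.1 CPM, a log2 fold change of -0.78 (SE 0.26). Srebf1 read 2.22, 1.24 and 3.30 CPM against 1.05, 0.425 and 0.644 CPM, a log2 fold change of -1.66 (SE 0.68). These members were fully separated by label, and none passed the adjustment over all genes. Fasn, called at 12 months, stood at 0.04 (SE 0.25), with 71.2, 82.9 and 92.2 CPM against 102, 78.7 and 72.2 CPM.

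At 24 months on chow, again no member and no gene passed by edgeR (0%), while 29 of 37 members had a log2 fold change below 0. Of the sterol branch 17 of 21 were below 0 (median -0.11), of fatty acid synthesis 8 of 11 (median -0.12) and of glycerolipid synthesis 4 of 5 (median -0.09), beside 7098 of 15064 tested genes and a median of 0.02. An unadjusted p under 0.05 was reached by 5 members and by 1409 of all tested genes. DESeq2 called 15 genes and limma-voom none, and no member was among them. In no member did the groups separate, beside 1.53% of all tested genes.

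Several marker lists were also mostly below 0 at 24 months, with no marker called. Of 8 tested adipocyte markers 7 were below 0 (median -1.24, 3 at an unadjusted p under 0.05), with sums of 81.7 to 329 CPM in fl/fl and 67.4 to 184 CPM in Pt-CrAT. All 8 markers of segment S3 were below 0 (median -0.15, 1 at an unadjusted p under 0.05), as were all 7 androgen-responsive kidney genes (median -0.91, 4 at an unadjusted p under 0.05). The androgen-responsive genes summed to 25462 to 34682 CPM in fl/fl and 3443 to 30515 CPM in Pt-CrAT. Below 0 were also 8 of 12 S1 and S2 markers and 4 of 6 liver markers. Other lists were mostly above 0, with 5 of 7 for collecting duct and medulla and 5 of 7 immediate early genes. So were 6 of 10 macrophage, 4 of 6 thick ascending limb and distal tubule and 4 of 5 glomerulus markers. The part of these lists in the member differences was not tested.

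Acat2 read 230, 253, 201, 240 and 253 CPM in fl/fl and 132, 184, 205.02, 126 and 222 CPM in Pt-CrAT. The Pt-CrAT libraries ranged from the fl/fl level downward, with a log2 fold change of -0.44 (SE 0.16, edgeR adjusted p = 0.461). Fasn read 97.1, 148, 81.9, 145.4 and 98.0 CPM against 69.4, 76.2, 102, 43.1 and 89.1 CPM, a log2 fold change of -0.59 (SE 0.20). Scd2 read 48.7, 26.0, 37.4, 50.8 and 38.2 CPM against 58.7, 57.0, 48.6, 70.8 and 46.4 CPM. Its log2 fold change was 0.48 (SE 0.20), opposite in sign to that at 12 and 15 months. Srebf1 read 2.31, 0.622, 0.679, 0.694 and 1.97 CPM against 3.34, 3.92, 1.75, 2.12 and 1.07 CPM, a log2 fold change of 0.94 (SE 0.48, edgeR adjusted p = 0.544).

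At 24 months, 2 Pt-CrAT libraries, CrAT24Mchow123 and CrAT24Mchow136, were low for several sterol members. Cyp51 read 104 and 87.6 CPM in them and 275, 305 and 352 CPM in the other Pt-CrAT libraries at 24 months. Mvd read 209 and 79.9 CPM in them and 268, 322 and 289 CPM in the others. Over the 21 sterol members, the median of log2 level minus member mean was -0.43 in CrAT24Mchow136, the lowest of the 22 libraries. In CrAT24Mchow123 it was -0.10, within the range of the fl/fl libraries at 24 months (-0.16 to 0.13), so this library was low for single members and not for the branch. Not all members were low there, since Lss read 5.31 and 6.55 CPM in these libraries against 2.65 to 4.37 CPM in the others. The androgen-responsive tubule gene Kap was 4565 and 2853 CPM in these libraries and 18928 CPM or more in the other 20. Without CrAT24Mchow123 and CrAT24Mchow136, 23 of 37 members were below 0 at 24 months, with 13 of 21 in the sterol branch (median -0.04). Since these libraries were low for several sterol members, leaving them out raises such differences by itself, and the count is not a test.

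Libraries of 1 group also differed among themselves at 24 months. In fl/fl, Elovl5 read 51.0 CPM in Wt24Mchow145 and 21.5 CPM in Wt24Mchow154, and Hmgcs1 read 812 and 417 CPM. In the opposite direction, Fasn read 97.1 and 148 CPM and Mvd 273 and 456 CPM in the same order. The rho of library level with GC content was -0.24 in Wt24Mchow145 and 0.06 in Wt24Mchow154.

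Between 15 and 24 months in Pt-CrAT, 6 of 37 members passed the test, 5 lower and 1 higher at 24 months. The members that fell were Acat2, Tm7sf2, Nsdhl and Sc5d of the sterol branch and Dgat2 of glycerolipid synthesis, and Scd2 rose. Among all tested genes 11.3% passed, 5.61% higher and 5.71% lower. The median log2 change was -0.16 in the sterol branch, -0.07 in fatty acid synthesis and -0.27 in glycerolipid synthesis, beside 0.04 over all tested genes. In 14 of 37 members (37.8%) the ages did not overlap, beside 21.8% of all tested genes.

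Markers of the tubule and of other cells moved over the same ages in Pt-CrAT. Of the S1 and S2 markers 5 of 12 were called lower at 24 months, and their sums went from 17975 to 19941 CPM at 15 months to 9969 to 14071 CPM. Of the S3 markers 3 of 8 were called lower, and of the androgen-responsive genes 3 of 7. Markers called higher were 3 of 7 for collecting duct and medulla and 3 of 10 for macrophages. Of 8 adipocyte markers 1 was called lower, of 6 liver markers 1 higher, and of 6 thick ascending limb and distal tubule markers 1 higher and 1 lower. In fl/fl, 1 of 6 thick ascending limb and distal tubule markers and 1 of 12 S1 and S2 markers were called lower. The S1 and S2 sums in fl/fl were 16134 to 18465 CPM at 15 months and 13328 to 16106 CPM at 24 months. None of the macrophage or collecting duct markers was called in fl/fl. All 10 macrophage markers were nevertheless above 0 in each genotype (median 0.67 in fl/fl and 0.48 in Pt-CrAT). Of the 12 S1 and S2 markers, 10 were below 0 in fl/fl (median -0.47) and 9 in Pt-CrAT (median -0.54). Collecting duct and medulla markers were above 0 for 5 of 7 in fl/fl (median 0.23) and 7 of 7 in Pt-CrAT (median 0.47). The part of these shifts in the member changes with age was not tested.

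Sc5d read 94.5, 97.7 and 83.3 CPM at 15 months and 38.0, 51.9, 51.7, 45.3 and 52.4 CPM at 24 months in Pt-CrAT. The ages were far apart, with a log2 change of -0.94 (SE 0.17, edgeR adjusted p = 0.00208). Dgat2 read 104, 121 and 130 CPM at 15 months and 58.0, 62.1, 75, 74.9 and 76.2 CPM at 24 months. Its log2 change was -0.78 (SE 0.12, edgeR adjusted p = 0.00117), again without overlap. These 2 members kept their call when any 1 of the 8 libraries was left out, and were the only members called without CrAT24Mchow123 and CrAT24Mchow136 together.

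Acat2 read 249, 274 and 267 CPM at 15 months, above the 126 to 222 CPM of 24 months, a log2 change of -0.60 (SE 0.18, edgeR adjusted p = 0.0333). Nsdhl read 20.6, 32.7 and 28.6 CPM and then 20.3, 19.0, 20.5, 14.5 and 20.2 CPM, a log2 change of -0.53 (SE 0.15, edgeR adjusted p = 0.0214). Tm7sf2 read 4.14, 4.88 and 4.02 CPM and then 2.49, 2.83, 2.76, 2.18 and 3.01 CPM, a log2 change of -0.71 (SE 0.22, edgeR adjusted p = 0.0410). Each of these groups of values separated by age, though for Nsdhl only narrowly, at 20.6 against 20.5 CPM. Scd2 rose from 37, 30.1 and 26.1 CPM to 58.7, 57.0, 48.6, 70.8 and 46.4 CPM, with a log2 change of 0.86 (SE 0.24, edgeR adjusted p = 0.0251).

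These calls were less steady than those of Sc5d and Dgat2. Without CrAT15Mchow185 at 15 months, Acat2 (adjusted p = 0.135), Tm7sf2 (0.188), Nsdhl (0.197) and Scd2 (0.108) missed the threshold, and likewise without CrAT15Mchow204 (0.126, 0.104, 0.114 and 0.138). Without CrAT24Mchow136 at 24 months the same 4 missed it (0.0815, 0.0908, 0.0551 and 0.0630), and without CrAT24Mchow123 Acat2 (0.0791) and Tm7sf2 (0.0733) did. Tm7sf2 was also lost without CrAT15Mchow183, CrAT24Mchow124 or CrAT24Mchow135 (0.0646, 0.0566 and 0.0546). In a fit on the 8 Pt-CrAT libraries alone, Acat2 (0.0508), Tm7sf2 (0.0575) and Nsdhl (0.0662) missed it, while Sc5d, Dgat2 and Scd2 passed. Srebf1, which missed the threshold in the fit of all libraries, also passed there (0.0346). Since Crat ran against the labels at 15 months, the change is between libraries labelled Pt-CrAT.

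Among members that missed the threshold in Pt-CrAT, Srebf1 had a log2 change of 1.78 (SE 0.63, edgeR adjusted p = 0.0680) and Fads2 of -0.76 (SE 0.25, adjusted p = 0.0509). Fads2 read 18.8, 21 and 20.0 CPM at 15 months and 12.5, 11.6, 13.6, 5.76 and 15.3 CPM at 24 months. All 5 glycerolipid members had a change below 0. Hmgcs1 read 705, 615 and 725 CPM and then 331, 589, 557, 416 and 571 CPM, a log2 change of -0.47 (SE 0.20, adjusted p = 0.138).

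In fl/fl, 1 member passed between 15 and 24 months, with 1.3% of all tested genes called, 0.823% higher and 0.478% lower. Sc5d read 112, 87.5 and 70.0 CPM at 15 months and 65.7, 45.6, 56.8, 43.7 and 56.3 CPM at 24 months. The ages did not overlap, and the log2 change was -0.74 (SE 0.17, edgeR adjusted p = 0.0311). It missed the threshold when any of Wt15Mchow205, Wt15Mchow225 and Wt15Mchow227 was left out (0.156, 0.0809 and 0.0688), or any of Wt24Mchow154, Wt24Mchow164 and Wt24Mchow165 (0.0774, 0.0557 and 0.0773). Dgat2 read 93.9, 94.8 and 101 CPM and then 73.0, 92.1, 89.8, 86.1 and 77.5 CPM, a log2 change of -0.20 (SE 0.12) that did not pass. Hmgcs1 stood at -0.48 (SE 0.20) and Elovl5 at -0.51 (SE 0.21), neither past the test. In 4 of 37 members (10.8%) the ages did not overlap, beside 17% of all tested genes.

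**Figure D4:**
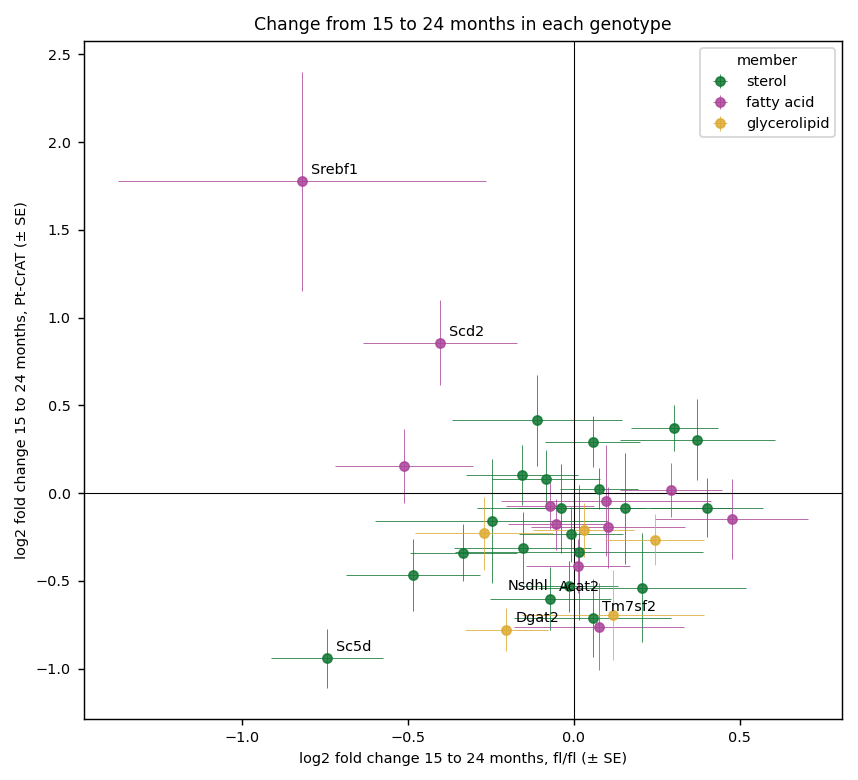
Log2 change from 15 to 24 months of each member in fl/fl (horizontal) and in Pt-CrAT (vertical), with SE and coloured by branch. Sc5d lies low on each axis, and Srebf1 and Scd2 lie above 0 in Pt-CrAT and below 0 in fl/fl.

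The change with age was also compared between the genotypes. For no member, and for no gene (0%), did edgeR call a difference between the genotype effects at 24 and 15 months, with 9 of 37 members and 2255 of 15064 genes at an unadjusted p under 0.05. DESeq2 and limma-voom called no member, and DESeq2 called 23 genes in all. Scd2 had the smallest p among the members, with a difference of 1.26 (SE 0.33, edgeR adjusted p = 0.290), then Dgat2 at -0.57 (SE 0.18) and Srebf1 at 2.60 (SE 0.84). An age change called in Pt-CrAT and not in fl/fl was therefore not shown to differ between them.

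Across the 3 settings, the genotype difference varied for 5 of 37 members in edgeR's test with 2 degrees of freedom, beside 5.07% of all tested genes. They were Acat2 (adjusted p = 0.0400), Pmvk (0.0472), Fasn (0.0378), Scd2 (0.0200) and Elovl1 (0.0285). Fasn stood at 0.82, 0.04 and -0.59 at 12, 15 and 24 months, and Elovl1 at 0.81, 0.17 and -0.26. Acat2 stood at 0.65, 0.09 and -0.44, and Pmvk at 0.77, 0.32 and -0.17. Scd2 went the other way, at -1.07, -0.78 and 0.48. None of the 5 was called without CrAT12MLFD328 or CrAT12MLFD337 at 12 months, and 1 was without Wt12MLFD326. For the mean of the 3 differences edgeR called no member, beside 0.0266% of all tested genes. An unadjusted p under 0.05 was reached by 9 of 37 members and by 3091 of 15064 genes. DESeq2 called 2 members, Msmo1 at -0.29 (adjusted p = 0.0476) and Scd2 at -0.46 (0.0465), and limma-voom none. The mean takes the 15-month difference by label, and for Scd2 it joins differences of opposite sign.

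**Figure D5:**
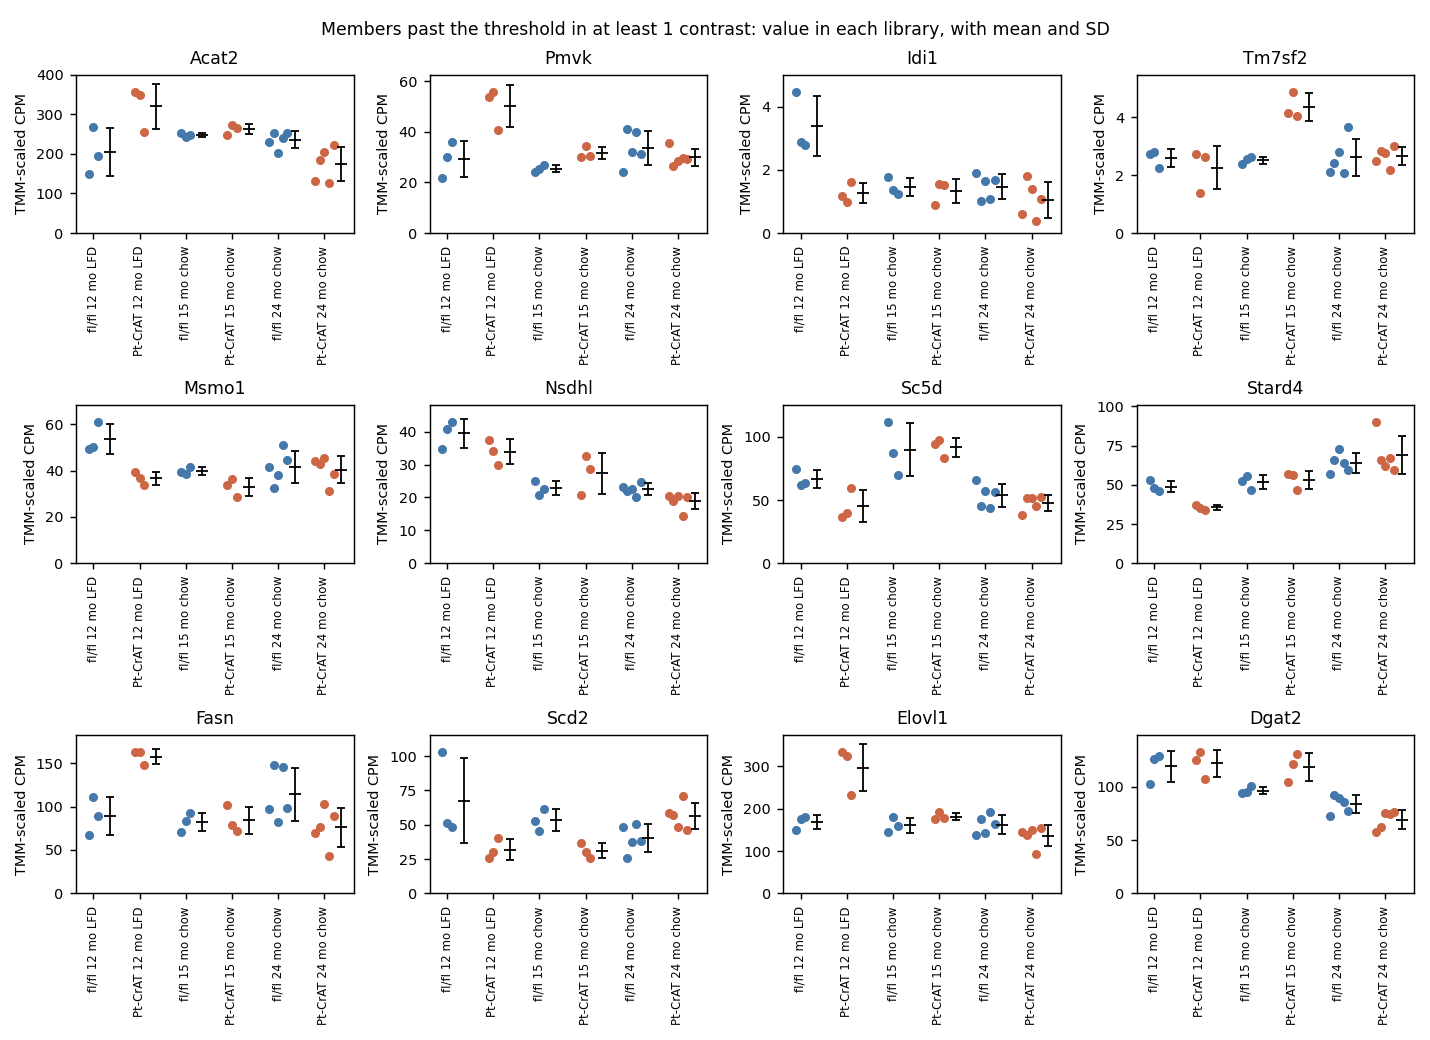
TMM-scaled CPM of the 12 members that passed the test in at least 1 comparison between 2 groups, 1 point for each library with the group mean and SD at its right. Blue points are fl/fl and red points Pt-CrAT, and each vertical axis starts at 0.

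Members of a branch did not move as 1 block from library to library. After the group means were subtracted, the median Pearson correlation over the 210 pairs of sterol members was 0.12, over the 55 fatty acid pairs 0.11 and over the 231 pairs between these branches 0.09. The 10 glycerolipid pairs had a median of -0.14, and all pairs of tested genes 0.00. The lower and upper quartiles were -0.10 and 0.35 over the sterol pairs, and -0.25 and 0.25 over all pairs of tested genes. Idi1 and Srebf1 have few counts, so their correlations are less certain. The pairs share 22 libraries and their composition, and no test was made. The highest values joined the branches, with 0.85 between Mvd and Elovl1, 0.85 between Mvd and Fasn and 0.84 between Mvd and Fads2. Within the sterol branch, Fdps and Sqle stood at 0.79. The lowest was -0.79, between Srebf1 and Dgat2.

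Related genes outside the 37 members were read from lists of other sterol and other lipogenic genes. Of 19 other sterol genes tested, 2 were called higher and 4 lower at 12 months, and of 28 other lipogenic genes 1 was called lower, beside 16.4% of all tested genes. An unadjusted p under 0.05 was reached by 10 of the sterol and 8 of the lipogenic genes, beside 5073 of 15064 genes. Ggps1, which makes geranylgeranyl diphosphate, stood at 0.58 and Nr1h3, the liver X receptor alpha, at 0.49. Nr1h2, its beta form, stood at -0.69, the exporter Abcg1 at -1.17, the protease gene Mbtps2, whose product frees SREBP, at -0.60 and Erg28 at -0.39. The lipogenic gene was Acsl5, an acyl-CoA synthetase, at -0.56. From 15 to 24 months in Pt-CrAT, 3 of 19 sterol genes rose and 3 fell, and 1 of 28 lipogenic genes rose and 3 fell, beside 11.3% of all tested genes. Among the sterol genes were the exporters Abca1 at 1.24 and Abcg1 at 1.17, Lbr at -0.52 and the acetoacetyl-CoA synthetase Aacs at -1.70. Of the lipogenic genes Acsl3 rose by 0.67 on the log2 scale, and Hsd17b12 (-0.62), the citrate carrier Slc25a1 (-0.56) and Agpat1 (-0.54) fell. At 15 and 24 months between genotypes, and with age in fl/fl, edgeR called none of these genes in either list. At an unadjusted p under 0.05 there were 0, 4 and 7 sterol and 2, 1 and 6 lipogenic genes in these comparisons. DESeq2 called 0, 1 and 3 sterol and 0, 0 and 1 lipogenic genes, and limma-voom none.

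Some member levels carry a limit of annotation. The strand setting of the authors' counting is not given in the sources used here. An annotated gene on the opposite strand covers the 3′ end of Elovl1 (Cdc20), Cyp51 (Akap9), Fdft1 (Ctsb), Agpat2 (Egfl7) and Srebf1 (Rai1). Without strand, reads of such a pair cannot be told apart, so the values of these 5 members are uncertain to that extent. Tm7sf2 shares 532 bases with Vps51 on the same strand, where strand cannot tell reads apart. That overlap does not cover the 3′ end of Tm7sf2.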

How the data were processed

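The measured material was polyadenylated RNA of kidney cortex in 22 libraries. The authors deposited a table of raw read counts, and every test starts from it. Libraries came from TRIzol RNA and the QuantSeq 3′ FWD kit, per the labels' protocols. Per the submitters' processing notes, GRCm38, DESeq2 1.18.1 and R 3.4.3 were used. The aligner, the counter and its use of strand are not given in the sources used. A normalized signal that the authors deposited, counts divided by library size factors, served here only for its gene symbols. A deposited table of count sums was not used here.

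Groups came from the genotype, age and title of each library. All libraries entered 1 edgeR 4.0.16 model of 6 groups (R 4.3.3, 16 residual degrees of freedom), with filterByExpr, TMM factors and robust quasi-likelihood tests. Adjustment was by Benjamini and Hochberg over 15064 genes, at a threshold of 0.05. The biological coefficient of variation was 20.5%. The fit was tested on simulated data. Of 50 genes changed 1.5-fold between the genotypes, it called 14% at 12 months, 12% at 15 months and 42% at 24 months. Of 50 changed 2-fold it called 76%, 78% and 92%, so a small difference without a call can be a missed one. Reads carry no molecular identifiers, so precision was taken from the spread between libraries, 1 for each animal title, and shared litters or days are not recorded in the labels. The alternatives were DESeq2 1.42.0, limma-voom (limma 3.58.1), RLE size factors, no filter, only the groups compared, and leaving out libraries. GC content and gene overlaps came from GENCODE M21 and promoters from RefSeq.

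The members and gene lists were chosen with earlier results of these data known. Every member could be named, with values in each library for members past the threshold and for others chosen by role. Of related genes, those past the threshold were eligible, at most 8 for each comparison by smallest p. A few genes are not reported here.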

Additional observations from a re-analysis of the deposited data

Results flagged for a closer look

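In 3 of 74 sets of a member and a 24-month group, the highest or lowest library stood apart from the other 4 by more than 0.71 of the range of the group, Dixon's limit for 5 libraries. Chance alone gives this in about 5% of sets. The 3 were Sqle at 43.0 CPM in CrAT24Mchow136, where the others read 73.2 to 81.2 CPM, Nsdhl at 14.5 CPM in the same library, where the others read 19.0 to 20.5 CPM, and Stard4 at 90.2 CPM in CrAT24Mchow123, where the others read 59.7 to 67.4 CPM.

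For 5 members the genotype difference varied among the 3 settings by edgeR's test of the variation itself, beside 5.07% of all tested genes. The adjusted p was 0.0400 for Acat2, 0.0472 for Pmvk, 0.0378 for Fasn, 0.0200 for Scd2 and 0.0285 for Elovl1. Age and the diet word of the titles differ together between 12 months and the later ages, so their parts cannot be told apart.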

How the results depend on the processing

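Over 259 pairs of a member and a comparison, 4292 alternative fits gave no change of sign for a called value; 74 lost a call, 24 gained one and 252 changed the sign of a value called in neither fit. With DESeq2, genes called rose from 0 to 15 at 24 months, from 4 to 249 for the mean genotype difference (members from 0 to 2), from 764 to 2439 for its variation (members from 5 to 8), from 196 to 755 for age in fl/fl and from 0 to 23 for the change of the genotype difference between 15 and 24 months. With only the groups compared in the fit, the count at 12 months went from 2464 to 1 (members from 8 to 0) and at 15 months from 0 to 4.

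Leaving out 1 library at a time gave 53 to 3513 genes and 0 to 9 members at 12 months, 0 to 2 genes at 24 months, 1 to 262 genes and 0 to 1 members for the mean, and 2 to 2195 genes and 0 to 6 members for the variation. It gave 3 to 756 genes and 0 to 2 members for age in fl/fl, and 393 to 1777 genes and 2 to 9 members for age in Pt-CrAT, where 1705 genes and 6 members were called with all libraries. Without CrAT12MLFD328 and Wt12MLFD326 together, 19 genes and 0 members were called at 12 months, 2 genes for the mean, and 2 genes and 0 members for the variation. Without CrAT24Mchow123 and CrAT24Mchow136 together, 417 genes and 2 members were called for age in Pt-CrAT, 1 gene for the mean, and 30 genes and 0 members for the variation.

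DESeq2 gained Sc5d, Acaca and Srebf1 at 12 months (adjusted p = 0.0342, 0.0396 and 0.0184). It also gained Fads2 and Srebf1 for age in Pt-CrAT (0.0313 and 0.0243), and Msmo1 and Scd2 for the mean. RLE size factors gained Sc5d at 12 months (0.0488) and Fads2 for age in Pt-CrAT (0.0487), and limma-voom gained the latter (0.0447). The groups-only fit gained Srebf1 for age in Pt-CrAT (0.0346). The other gains, among them Dgat1, Elovl5 and Stard4, came with 1 library left out. RLE size factors, no filter and limma-voom kept each count within 1.5 times. CPM by total count was 0.842 to 1.20 times the TMM-scaled CPM. Idi1 and Srebf1 rest on as few as 6 and 4 counts in a library. No paired analysis was possible because no replicate number is shared between groups.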
